A study of Papilio xuthus with 10 samples.

Results

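The genes described here are those of the swallowtail butterfly *Papilio xuthus* whose RNA level decreased at each larval step after the second instar (an instar is the period between 2 moults). They were chosen on RPKM, a read number normalised to gene length and to the reads of the library, in the libraries of instars 2 to 5 (L2 to L5). A gene was a member if its RPKM was 10 or more in L2 and lower in each later instar than in the one before. In addition, its RPKM + 1 had to be at least 4 times higher in L2 than in L5, but less than 3 times higher in L2 than in L3. The last limit leaves out genes that fell by 3 times or more at the first step. The rule found 146 genes among the 15123 of the table, or 0.965%.

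The series covers development from egg to adult by RNA sequencing of whole bodies, with 1 library for each of 10 groups: egg, L1, L2, L3, L4, L5, and a pupa and an adult of each sex. Animals came from butterfly insectaries or were raised from collected larvae, and caterpillars fed on a rutaceous plant. No treatment is named. Eggs, L1 and L2 were pooled animals, and each later library came from a single animal, so that neither animal-to-animal variation nor the age within a stage can be separated from the stage. The labels give no strain, genotype or age in days. They also give no sex for the egg and larvae, so that larval sex cannot be separated from the instar either.

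Butterflies are holometabolous insects. The caterpillar does most of the feeding and growing of the life cycle, and it moults its cuticle between instars as it outgrows it. Adult structures such as wings, legs and eyes grow from imaginal discs and other set-aside cells that divide inside the larva, and the pupa is the stage in which the larval body is taken down and the adult body is built. An adult female body holds ovaries with developing eggs, whose RNA is loaded by the mother, and an adult male body holds testes. The deposited values come with identifiers, which are not paired with names. RefSeq lists 13139 genes for assembly Pxut_1.1 and none carries such an identifier (0 matches), so that the products of the members are not described here and no sequence is shown.

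Library totals read back from the values lay between 23378656 reads in L5 and 35161755 in the male pupa. In the 4 libraries that chose the members, reads at genes summed to between 124% (L4) and 154% (L2) of the total, against 76.5% (female adult) to 98.6% (male adult) in the other 6. Upper quartiles of RPKM were also lower there, between 15.3 (L2) and 17.7 (L3), against 24.1 (male adult) to 31.8 (female adult). The egg and L1 libraries were nearly alike, with a Spearman's rho of 0.974 across genes and 1 gene apart by 2 on the log2(RPKM + 1) scale. The part of these differences in the results below was not tested.

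The rule was narrow at each stage of selection. Of the 15123 genes, 4382 had an RPKM of at least 10 in L2, called the L2-expressed genes below. Of these, 531 (12.1%) decreased in order over L2, L3, L4 and L5, 193 of them by 4 times or more. The limit on the first step then divided the 193 into the 146 members and 47 genes with a steeper first step, called the steep set below. The mirror rule, with values increasing over L2 to L5, was met by 183 genes (the rising set). The number of members depended on the scaling between libraries, which was not varied for the other 2 sets. With libraries brought to the same sum of RPKM the rule found 67 genes, 51 of them members, and with libraries brought to the same upper quartile it found 190, of which 117 were members.

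In the middle of the members, the RPKM was 41.7 in L2, 22.9 in L3, 11.8 in L4 and 6.81 in L5 (medians over 146 genes). These values chose the genes and are given as a description. The fall in log2(RPKM + 1) between L2 and L5 had a median of 2.36, or 5.15 times, and reached 4.99, or 31.8 times. It was under 5 times in 68 members, 8 times or more in 33 and 16 times or more in 7. Levels in L2 spanned 10.1 to 1109, with 28 members at 100 or more and 29 below 20. In whole-body RNA, fewer cells of a type and less RNA per cell cannot be told apart.

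**Figure D1:**
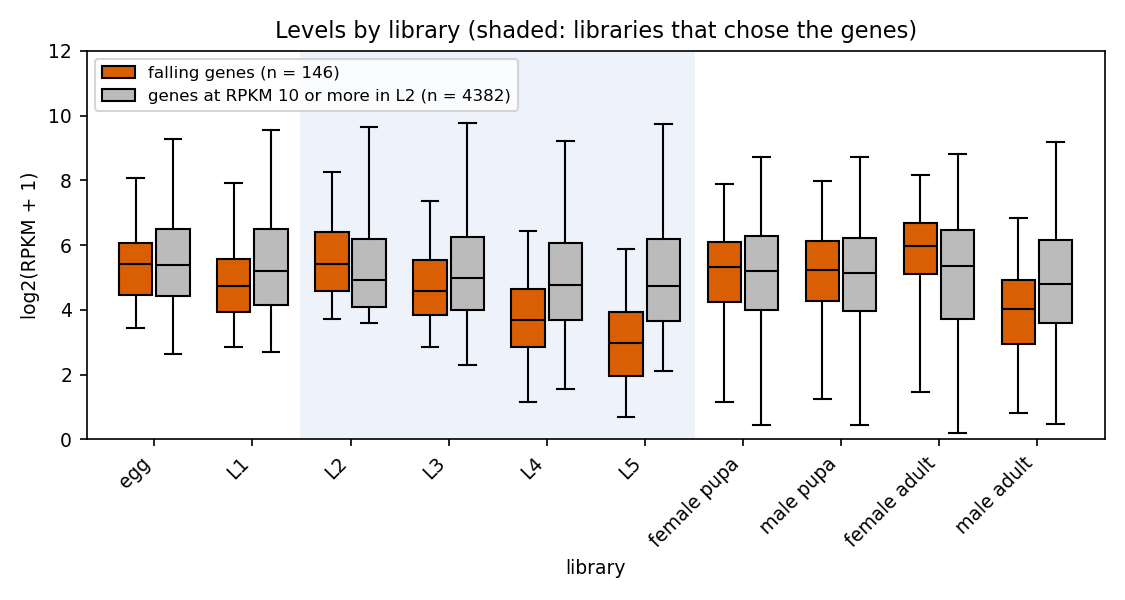
Levels of the 146 falling genes (orange, left) and of the 4382 L2-expressed genes (grey, right) in each library, as log2(RPKM + 1). Boxes give the median and quartiles and whiskers the 5th and 95th percentiles, and the shaded libraries chose the falling genes. Outside the shaded libraries the falling genes had median RPKM of 61.2 in the female adult compared with 15.4 in the male, whereas the egg and pupae lay between 36.5 and 41.9.

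The decrease was not equally steady in all members. The step with the largest share of the fall was L3 to L4 in 56 members, L2 to L3 in 52 and L4 to L5 in 38. A single step held 75% or more of the fall in 10 members, 8 of them at L3 to L4 and 2 at L4 to L5, the step from L2 to L3 being limited by the rule. At the other end, 36 members had at least 20% of the fall in each of the 3 steps. Median shares were 35.2% for L2 to L3, 33.0% for L3 to L4 and 27.8% for L4 to L5.

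**Figure D2:**
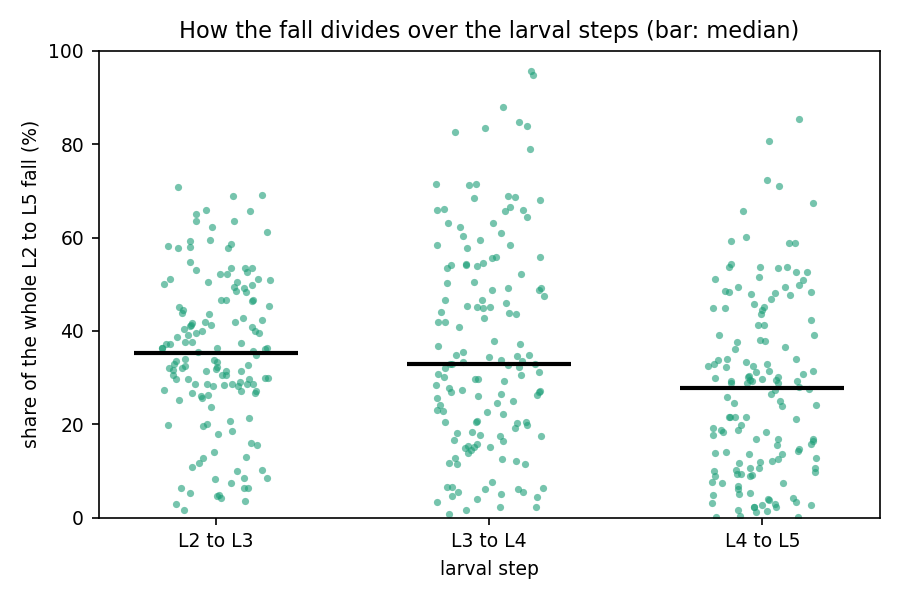
Share of the whole L2 to L5 fall, in percent of the difference in log2(RPKM + 1), taken by each larval step. Each point is 1 of the 146 genes and bars are medians, 35.2%, 33.0% and 27.8% from left to right. Shares up to 95.6% occur at L3 to L4, while those of L2 to L3, which the rule limits, reach 70.8%.

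The depth behind the larval values differed between members. The members had at least 78 reads in L2 (median 867.5) and at least 2 in L5 (median 116.5), with 6 members below 10 reads in L5. Exact Poisson 95% intervals, which cover counting error only, did not overlap between L2 and L5 in any of the 146 members, which the rule nearly fixed by its limits on L2 and on the fall. The steps are likewise values of the rule and are described only. Intervals were apart between L2 and L3 in 133, between L3 and L4 in 128 and between L4 and L5 in 102. In 80 members all 3 steps were apart, and in 137 at least 2 were. Such counts were not made for other genes, so that they have no background and nothing is read from them.

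The members with the evenest fall were RR46_03396 and RR46_00645. RR46_03396 had an RPKM of 11.3 in L2, 5.61 in L3, 2.44 in L4 and 0.861 in L5, with 33.0%, 34.5% and 32.5% of the fall in the successive steps. RR46_00645 had 29.0, 16.7, 10.1 and 5.98 in the same order, with 36.1%, 32.4% and 31.5%. Both were higher again after the larva, RR46_03396 at 5.71 (female) and 9.31 (male) in the pupae and 35.9 (female) and 11.0 (male) in the adults. RR46_00645 was at 38.7 (female) and 41.1 (male) in the pupae and 55.3 (female) and 14.8 (male) in the adults. Before L2 they were at 14.4 and 23.1 in the egg and at 7.36 and 12.7 in L1.

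The members with the largest fall, RR46_12272 and RR46_07284, lost most of their level in 1 step. RR46_12272 had an RPKM of 104 in the egg, 162 in L1, 81.1 in L2, 73.2 in L3, 1.72 (exact 95% interval 0.961 to 2.83, 15 reads) in L4 and 1.58 (0.791 to 2.84, 11 reads) in L5. It thus stayed near its L2 level in L3, had 95.6% of its fall between L3 and L4, and its last 2 intervals overlapped. It was at 26.7 (female) and 25.8 (male) in the pupae, and at 2.21 (female) and 54.1 (male) in the adults. RR46_07284 had 166 in the egg, 232 in L1, 78.9 in L2, 61.2 in L3, 2.67 in L4 and 1.83 in L5, with 84.8% of its fall between L3 and L4. It had 0 reads in both pupae, which allows an RPKM of up to 0.219 in the female and 0.203 in the male (3 reads), and 4 and 7 reads in the female and male adult. Both genes had the same outline up to L5 and differed afterwards, RR46_12272 being present in pupae and in the male adult and RR46_07284 near 0.

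The members of highest level in L2 were RR46_11548 and RR46_13010. RR46_11548 had an RPKM of 600 in the egg, 381 in L1, 1109 in L2, 391 in L3, 361 in L4, 227 in L5, 423 (female) and 340 (male) in the pupae, and 524 (female) and 411 (male) in the adults. L2 stood out above the rest, and 65.7% of the fall was between L2 and L3. RR46_13010 had 296 in the egg, 278 in L1, 899 in L2, 582 in L3, 457 in L4, 170 in L5, 1133 (female) and 1017 (male) in the pupae, and 651 (female) and 233 (male) in the adults. Here the pupae were higher than L2, and the gene was also the member with the highest level in both pupae and the second highest in the female adult.

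**Figure D3:**
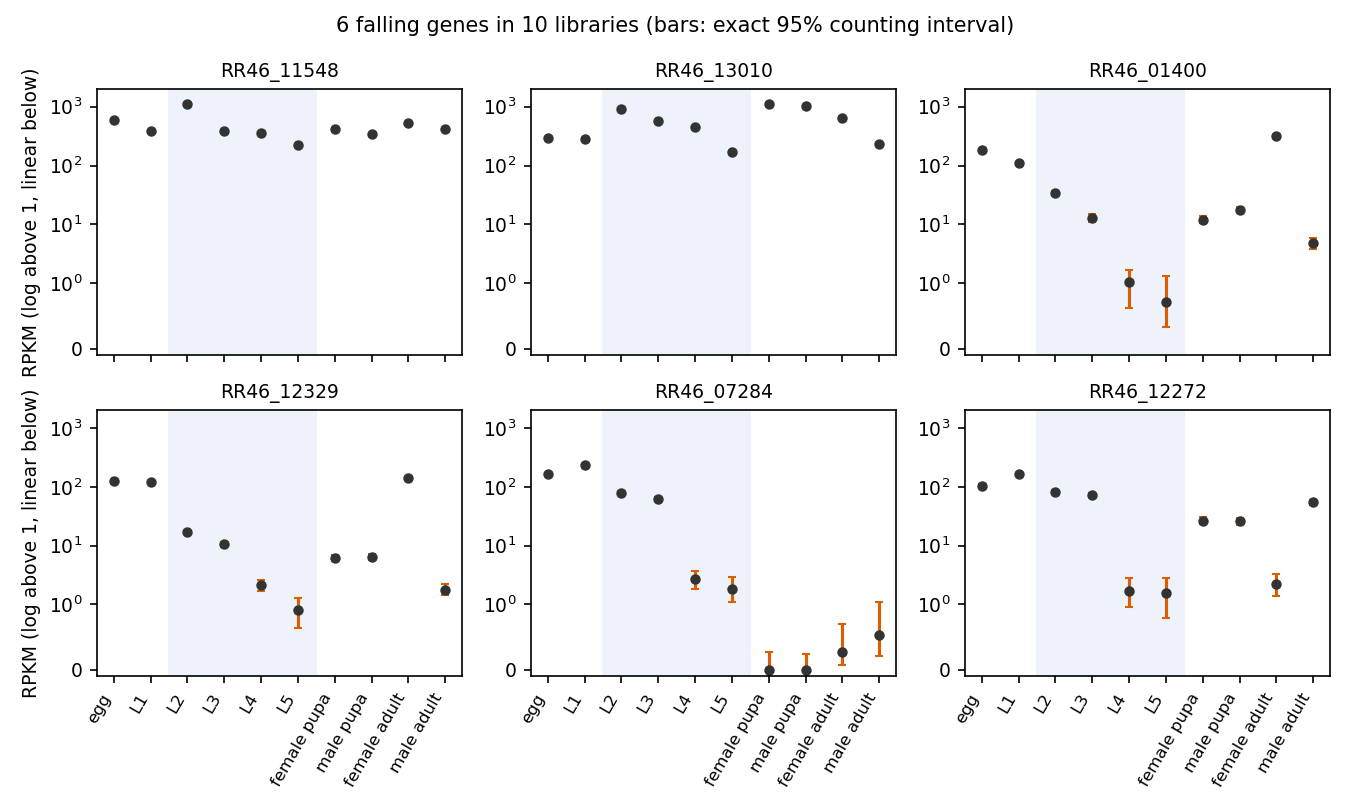
RPKM of 6 falling genes in the 10 libraries, on an axis that is logarithmic above 1 and linear below. Points are single libraries and bars exact Poisson 95% counting intervals, which are hidden by the points at high levels, and the shaded libraries chose the genes. RR46_11548 and RR46_13010 stay at or above 170 in each library, RR46_01400 and RR46_12329 are high in egg, L1 and female adult, and RR46_07284 and RR46_12272 drop between L3 and L4.

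Outside the libraries of the rule, most members were present in the egg, the pupae and the adults, as were most of the L2-expressed genes. Median RPKM was 41.9 in the egg, 25.5 in L1, 39.2 (female) and 36.5 (male) in the pupae, and 61.2 (female) and 15.4 (male) in the adults, so that each of these medians was above the 6.81 of L5. L5 was the lowest of all 10 libraries in 115 members (78.8%), although this number was 77 with equal upper quartiles and 131 with equal sums. Among the L2-expressed genes, L5 was the lowest library in 20.7%. The rule chose for low L5, and nothing is read from this difference. No member was below an RPKM of 1 in the egg or L1 (0 of 146 in each), against 31 and 30 of the 4382 L2-expressed genes, while 8 members were in each of the pupae, and 5 (female) and 9 (male) were in the adults. Of the L2-expressed genes, 324 (female) and 338 (male) were below 1 in the pupae, and 434 (female) and 328 (male) in the adults. Both pupae were below 1 in 5.48% of the members, 6.37% of the L2-expressed genes and 17.9% of all genes. The members were thus near the L2-expressed genes, and nothing is read from their presence.

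The place of each outside library within the larval range was then counted. The female adult was above L2 in 88 members, between L5 and L2 in 46 and below L5 in 12. The male adult was above L2 in 11, between in 112 and below L5 in 23. The female pupa was above L2 in 53, between in 83 and below L5 in 10, and the male pupa in 51, 84 and 11. The egg was above L2 in 52 members and below L5 in 2, and L1 was above L2 in 31 and below L5 in none (0). The adults of the 2 sexes therefore differed in their place, and the pupae hardly. Of the members, the female adult was above L2 in 60.3%, the male adult in 7.53%, the pupae in 36.3% (female) and 34.9% (male), the egg in 35.6% and L1 in 21.2%. For the 2552 L2-expressed genes that were lower in L5 than in L2, these shares were 53.4%, 28.1%, 49.1%, 47.2%, 49.2% and 35.5% in the same order. L2 and L5 are values of the rule, which made the larval range of the members wide, so that the place within it was not independent of how they were chosen and nothing is read from the contrast.

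Each member was assigned to the library of its highest value. This was the female adult for 66 members (45.2%), L2 for 39 (26.7%), the egg for 11, the male pupa for 11, L1 for 8, the female pupa for 8 and the male adult for 3. Among the L2-expressed genes, the female adult held the highest value in 23.5% and L2 in 12.9%. The rule leaves no member with its highest value in L3, L4 or L5, where 7.26%, 6.53% and 7.76% of the L2-expressed genes had theirs, so that the shares of the other libraries were partly set by it. The order of these libraries rested on the scaling, since L2 was highest in 92 members and the female adult in 23 with equal upper quartiles, whereas with equal sums L2 was highest in 5 and the female adult in 96.

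**Figure D4:**
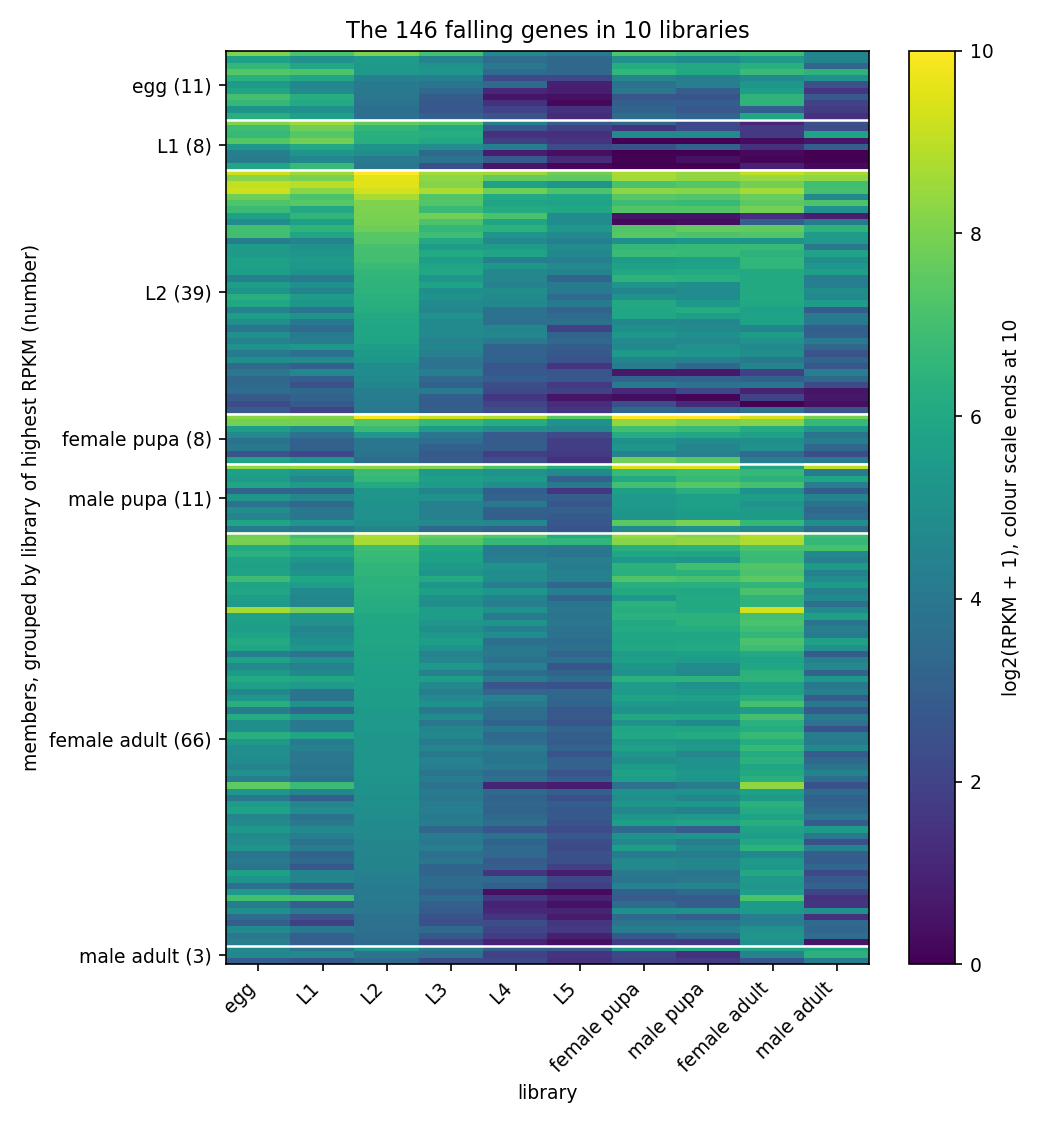
Levels of the 146 falling genes (rows) in the 10 libraries (columns) as log2(RPKM + 1), with the colour scale ending at 10. Rows are grouped by the library of the highest value, with the number of genes in brackets, and sorted by L2 within a group. The column of L5 is dark in most rows, the 66 rows of the female adult group are darker in the male adult than in the female adult, and the 8 rows of the L1 group are dark in most libraries from L4 on.

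The groups formed this way are described by their medians. Each group is highest in its own library by construction, and its members depended on the scaling. The 66 genes highest in the female adult had median RPKM of 38.3 in L2, 6.73 in L5, 40.5 (female) and 38.0 (male) in the pupae, and 76.4 (female) and 14.2 (male) in the adults. The 39 genes highest in L2 had 88.1 in L2, 16.1 in L5, 39.2 (female) and 34.8 (male) in the pupae, and 55.3 (female) and 18.1 (male) in the adults. In both groups the pupae were above L5 and the male adult was the lowest of the pupal and adult libraries. The 8 genes highest in L1 differed from these, with medians of 134 in L1, 56.8 in L2, 45.2 in L3, 4.16 in L4, 1.71 in L5, and between 0.894 and 2.31 in the pupae and adults.

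The comparisons that follow use only libraries outside the rule. A gene was counted when its log2(RPKM + 1) differed by at least 2, that is 4 times in RPKM + 1, and no test was possible with 1 library per group. Counts among members are given beside the share of all 15123 genes past the same difference, the background.

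Of these comparisons, that of the 2 adults had the most members past the limit. Of the 146 members, 60 (41.1%) were higher in the female adult than in the male adult by 2 or more, against a background of 8.87%, and 3 (2.05%) were lower, against 10.3%. The median difference, female minus male, was 1.75 in members (quartiles 0.87 and 2.66) and -0.04 over all genes. Any difference above 0 was found in 131 members (89.7%), compared with 47.2% of all genes and 55.9% of the L2-expressed genes. Of the L2-expressed genes, 11.2% were higher in the female adult by 2 or more and 8.24% lower, with a median of 0.21. Scaling to equal upper quartiles moved the difference of all genes by -0.24, and then 47 members were higher in the female adult, against 5.71% of all genes. Scaling to equal sums moved the median of these 13055 genes by 0.31, and then 84 members were higher, against 14.2% of all genes.

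The largest female excess in adults was that of RR46_01400 and RR46_12329. RR46_01400 reached an RPKM of 322 (exact counting interval 314 to 330) in the female adult compared with 4.77 (3.79 to 5.93) in the male, a difference of 5.80 in log2(RPKM + 1). It had 181 in the egg, 112 in L1, 34.1 in L2, 12.9 in L3, 1.06 in L4, 0.709 in L5, and 12.1 (female) and 17.7 (male) in the pupae. The gene was high at both ends of development, in the female only, and lowest in L4 and L5. RR46_12329 was also high in the egg, L1 and the female adult, with 142 (139 to 145) in the female adult compared with 1.80 (1.44 to 2.22) in the male, 126 in the egg, 119 in L1, 16.9 in L2, 10.5 in L3, 2.11 in L4, 0.921 in L5, and 6.25 (female) and 6.38 (male) in the pupae. RR46_06175, the member highest in the female adult, was at 663 there, against 26.6 in the male adult, with 404 in the egg and 245 in L1.

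The 3 members lower in the female adult by 2 or more were RR46_12272, RR46_03553 and RR46_01544, the last named after its value was seen. RR46_12272 was at 2.21 in the female adult compared with 54.1 in the male, and RR46_01544 at 2.67 against 18.6. RR46_03553 was at 59.4 in the female adult compared with 511 in the male, and it was high in most libraries, at 311 in the egg, 340 in L1, 307 in L2, 265 in L3, 139 in L4, 72.5 in L5, and 668 (female) and 686 (male) in the pupae. It was the member highest in the male adult.

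The pupae of the 2 sexes differed little in these genes, as they did in the L2-expressed genes. No member differed by 2 or more (0 higher in the female pupa, background 0.456%, and 0 lower, background 4.03%), and the median difference was 0.05 with quartiles of -0.12 and 0.23. Of the L2-expressed genes, 0.525% were higher and 0.502% lower in the female pupa. Their median difference was 0.04, and that over all genes 0.03. The members lay near these values, and nothing particular to them is read from this. At a difference of 1, 2 members were higher and 1 lower in the female pupa, while the share of all genes past this limit was not counted. The largest female excess was in RR46_12308, at 15.0 in the female pupa compared with 7.21 in the male, and RR46_12849, at 17.8 against 8.74. The largest male excess was in RR46_06345, at 39.3 in the female pupa compared with 67.1 in the male, and RR46_05144, at 50.7 against 79.1. Whether the sex difference itself differed between adults and pupae was not tested.

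Adults were next set against the pupa of the same sex. In females, 13 members (8.90%) were higher in the adult by 2 or more, against a background of 6.17%, and 5 (3.42%) were lower, against 5.31%. Among the L2-expressed genes, 5.68% were higher and 7.78% lower. Few members thus passed the limit in females, while the median difference was 0.47 in members and 0.02 over all genes. In males, 5 members (3.42%) were higher in the adult, against a background of 8.91%, and 25 (17.1%) were lower, against 4.87%. The median difference in males was -1.22 in members and -0.14 over all genes. Among the L2-expressed genes, 8.85% were higher and 9.06% lower in the male adult by 2 or more, with a median of -0.34.

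The direction thus differed between the sexes for most members. The female adult was above the female pupa and the male adult below the male pupa in 92 members (63.0%), and the opposite held in 4 (2.74%). Over all genes the shares were 24.9% and 17.4%, and over the L2-expressed genes they were 29.0% and 15.5%. The 92 became 76 with equal upper quartiles and 105 with equal sums. Where a difference of at least 1 was asked for in both sexes, 20 members (13.7%) were higher in the female adult and lower in the male adult, against 2.56% of all genes and 2.83% of the L2-expressed genes. The other way round it was 1 member (0.685%), against 1.34% and 1.39%. At the limit of 2 in both sexes, no member was higher in the female adult and lower in the male adult (0, against 0.086% and 0.0685%). None went the other way at that limit (0, against 0.112% and 0.228%). RR46_05144 shows the male side, at 6.64 in the male adult against 79.1 in the male pupa, with 33.4 in the female adult against 50.7 in the female pupa. A single animal stood behind each of these 4 libraries.

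**Figure D5:**
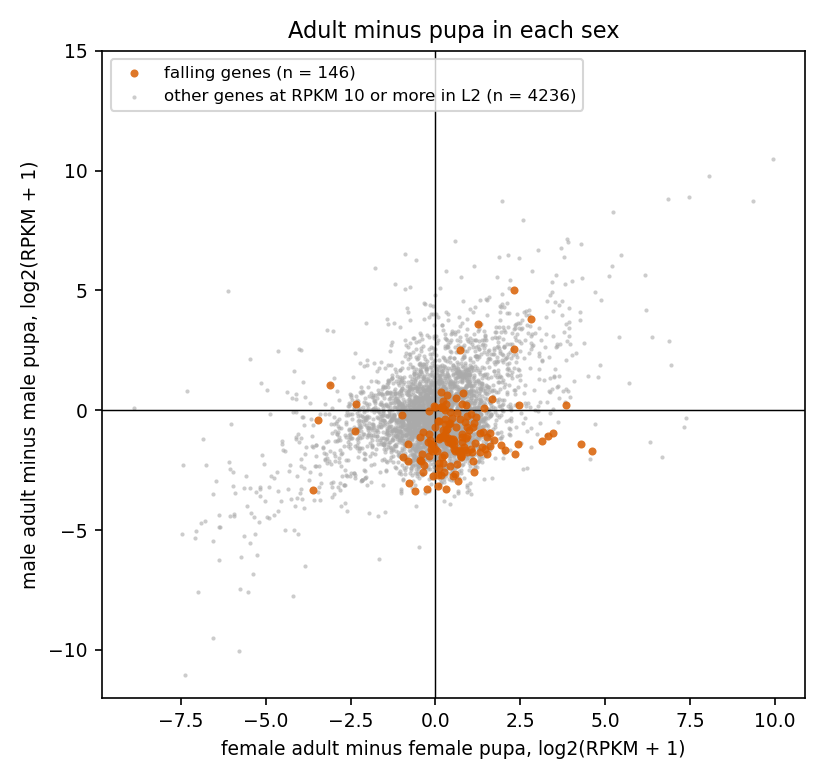
Difference between adult and pupa in log2(RPKM + 1) in females (horizontal axis) and males (vertical axis). Orange points are the 146 falling genes and grey points the other L2-expressed genes. In total 92 of the orange points lie at the lower right, higher in the female adult and lower in the male adult than in the pupa, and the few above the horizontal line include RR46_13265, at 84.3 in the male adult against 1.62 in the male pupa.

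The 5 members lower by 2 or more in the female adult than in the female pupa were RR46_03553, RR46_06014, RR46_06936, RR46_11978 and RR46_12272. Of these, RR46_06936 differed most, at 18.2 in the female adult against 235 in the female pupa, and in males it was at 15.8 in the adult against 169 in the pupa. The 5 members higher by 2 or more in the male adult than in the male pupa were RR46_01544, RR46_04379, RR46_12103, RR46_12675 and RR46_13265. RR46_13265 differed most of the 5, and RR46_12675 was second, at 16.5 in the male adult against 0.253 in the male pupa. The genes of both lists, other than RR46_03553 and RR46_12272, were named after their values were seen.

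Pupae were also compared with L1, the only larval library that the rule did not use. In the female pupa 11 members (7.53%) were higher than in L1 by 2 or more, against a background of 5.36%, and 19 (13.0%) were lower, against 9.40%. In the male pupa 10 (6.85%) were higher, background 8.74%, and 19 (13.0%) lower, background 9.32%. Among the L2-expressed genes, 5.52% were higher in the female pupa and 5.29% in the male pupa, and 15.7% were lower in each. The shares of the members lay near these values. With equal sums, the female pupa had 18 members higher and 18 lower, against 7.65% and 9.24% of all genes. With the egg in place of L1, 3 members were higher and 21 lower in the female pupa, and 2 higher and 23 lower in the male pupa. The shares of all genes against the egg were not counted, so that these counts have no background and nothing is read from them. The median difference from L1 was 0.76 for the female pupa and 0.64 for the male pupa in members, against 0.09 and 0.10 over all genes.

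The members were not uniform in this. Both pupae were above L1 in 99 members (67.8%), against 47.1% of all genes and 45.3% of the L2-expressed genes, and both were below in 39 (26.7%), against 39.2% and 46.5%. In 18 members (12.3%) both pupae were lower than L1 by 2 or more, which is near the 8.15% of all genes and 14.0% of the L2-expressed genes, and these 18 are given as a description. Their median RPKM was 66.7 in the egg, 71.5 in L1, 29.1 in L2, 13.1 in L3, 2.77 in L4, 1.46 in L5, 2.62 (female) and 2.61 (male) in the pupae, and 2.44 (female) and 3.57 (male) in the adults. By these medians the 18 decreased from L1 on, while pupae lower than L1 were set by the choice. The 18 were mixed in the adults, and 5 of them were among the 60 members that were higher in the female adult. RR46_01400 was at 322 in the female adult and RR46_13265 at 84.3 in the male adult, whereas RR46_07284 was at 0.271 (female) and 0.533 (male). In 7 members (4.79%) both pupae were higher than L1 by 2 or more, near the 3.67% of all genes and 4.11% of the L2-expressed genes, with medians of 13.7 in L1, 38.7 in L2, 3.90 in L5, and 71.6 (female) and 79.1 (male) in the pupae.

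Among the 18 were genes that were present in larvae and close to 0 later. RR46_02295, the member with the largest excess of L1 over L2, had an RPKM of 58.3 in the egg, 106 in L1, 14.7 in L2, 4.43 in L3, 0.510 in L4, 0.143 in L5, 0 reads in both pupae, and 0.854 (female) and 0.160 (male) in the adults. Its level had dropped before the libraries of the rule began. RR46_08903, named after its values were seen, had its plateau later, at 50.3 in the egg, 91.0 in L1, 253 in L2, 234 in L3, 138 in L4, 28.0 in L5 and at most 1.51, in the female adult, afterwards. Both pupae were below L5 in 8 members (5.48%), both genes included, against 25.2% of all genes and 36.1% of the L2-expressed genes, from which nothing is read because the rule chose for low L5.

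A further group shared high levels in the egg and the female adult. In 19 members (13.0%) the egg was higher than both pupae, and the female adult higher than the female pupa, by 1 or more in log2(RPKM + 1), a limit set after the values were seen. The same held for 7.05% of all genes and 7.71% of the L2-expressed genes. Median RPKM of the 19 was 51.2 in the egg, 27.0 in L1, 17.3 in L2, 10.5 in L3, 2.87 in L4, 0.921 in L5, 9.78 (female) and 7.21 (male) in the pupae, and 52.9 (female) and 4.77 (male) in the adults. RR46_01400 and RR46_12329 are such genes. Of the 19, 13 belonged to the 60 members that were higher in the female adult by 2 or more. Both groups were chosen on the female adult, and the 19 also on the egg. The overlap and the high medians in these libraries were thus partly set by the choice, and nothing is read from them. Over all 60, the pupae were closer to the egg, with medians of 43.7 in the egg, 39.8 (female) and 38.0 (male) in the pupae, and 77.5 (female) and 8.87 (male) in the adults.

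L1 differed little from the egg, as it did over the whole table. No member was higher (0, background 0%) or lower (0, background 0.00661%) in L1 by 2 or more. The direction was nevertheless mostly the same, with L1 below the egg in 128 members (87.7%), against 61.0% of all genes and 56.3% of the L2-expressed genes. The median difference was -0.64 in members and -0.13 over all genes, and L1 was below the egg in 114 members with equal upper quartiles. L1 lay below both the egg and L2 in 107 members (73.3%), against 16.3% of all genes and 28.4% of the L2-expressed genes, a count that uses L2, for which the rule chose high values. The largest excess of L2 over L1 was in RR46_11728, at 166 in L2 and 21.0 in L1, and in RR46_01981, at 93.2 in L2 and 15.8 in L1.

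The members were set beside the 2 sets closest to them. The 47 genes of the steep set had median RPKM of 58.5 in L2 and 1.35 in L5, and of 9.42 in the egg, 4.00 (female) and 1.87 (male) in the pupae, and 6.50 (female) and 4.67 (male) in the adults. Outside L2 to L5, its medians were below those of the members in each library. Of the members, 60 (41.1%) were higher and 3 (2.05%) lower in the female adult, against 12 (25.5%) and 5 (10.6%) in the steep set. The median difference was 1.75 in members, 0.26 in the steep set and -0.97 in the rising set. In the rising set 1 of 183 genes (0.546%) was higher and 33 (18.0%) were lower. Between the male adult and the male pupa the median difference was -1.22 in members, -0.40 in the steep set and 0.55 in the rising set. The male adult was lower by 2 or more in 25 members (17.1%), in 11 genes of the steep set (23.4%) and in 11 of the rising set (6.01%). It was higher in 5 (3.42%), 7 (14.9%) and 24 (13.1%) in the same order. Genes within a set are not independent samples, and no test of these differences was made.

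The genes next to each limit of the rule are given as a description. RR46_09680 was just inside the limit of 4 times, at 4.01 times between L2 and L5, and RR46_02340 just outside, at 3.99 times. The female adult was above the male adult in both, at 32.5 against 8.87 in RR46_09680 and at 57.8 against 14.2 in RR46_02340. RR46_11226 was just inside the limit on the first step, at 2.99 times, and RR46_15157 just outside, at 3.01 times. RR46_11226 was at 109 in the female adult compared with 15.2 in the male, and RR46_15157 at 73.6 against 4.67. RR46_12103 was just above the minimum in L2, at 10.1, and RR46_13476, named after its value was seen, just below it, at 9.94. In this pair the female adult was below the male adult, at 5.46 against 17.8 in RR46_12103 and at 0.816 against 1.42 in RR46_13476.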

How the data were processed

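Poly-A RNA of whole bodies was sequenced from both ends on an Illumina instrument. Values deposited by the authors are RPKM (reads relative to gene length and library size) for 15123 genes in 10 libraries, 1 per stage, on the authors' own gene set. The submitters' processing notes name TopHat 1.0.12 and 1.4.1. Use of strand and of reads with several hits is not given in the sources used here. RPKM does not correct for library composition.

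Whole reads, coding lengths and library totals were read back from RPKM steps. All 15123 genes (100%) gave whole reads within 0.001 reads, with lengths in multiples of 3 bp in 99.9%. Lengths and reads are the smallest that the values allow. The recovery and the rule were tested on simulated data. Intervals are exact Poisson 95% intervals and cover counting error only, and 0 reads allow up to 3.

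Comparisons used differences of log2(RPKM + 1), which understate changes of low genes. With 1 library per group there is no replicate error, and no test was run. Alternatives were a pseudocount of 0.1, a difference of 1, scaling to the same upper quartile or sum, and other limits of the rule. Some were added after seeing the data: the egg for L1, members chosen at other scalings or with intervals apart, and scaling for the counts of direction and of highest library. The rule, members and lists were chosen with earlier results of these data known. Named genes are the first 2 of lists: highest in L2, in both pupae and in either adult, largest and evenest fall, largest difference between L1 and L2 and between sexes (where the larger value reached 10), with the genes next to each fold limit. Python 3.11.15, numpy 2.4.6, pandas 2.3.3, scipy 1.17.1 and matplotlib 3.10.9 were used.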

Additional observations from a re-analysis of the deposited data

Results flagged for a closer look

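The change between pupa and adult ran in opposite ways in the 2 sexes in most members. In 92 of the 146 falling genes (63.0%) the female adult was above the female pupa and the male adult below the male pupa. This held for 24.9% of all genes and 29.0% of the L2-expressed genes. The 92 became 76 with equal upper quartiles and 105 with equal sums. At a difference of 2 in both sexes, no member did so (0). The median difference in log2(RPKM + 1) was 0.47 in females and -1.22 in males, against 0.02 and -0.14 over all genes. With a single library for each sex and stage, the difference between the sexes was not tested.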

How the results depend on the processing

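Of 91 counts under alternative settings, 63 stayed within 1.5 times of the reported count and 28 moved, and each of 21 medians kept within 0.5 of its value. Falling genes numbered 67 with equal sums, 258 with a fall of 3 times, 33 with 8 times, 223 with L4 left out of the order and 80 with counting intervals apart at each step. A difference of 1 admits more genes by construction and gave 18 members lower in L1 than in the egg, 57 higher in the female pupa than in L1, 60 higher and 29 lower in the male pupa than in L1, 36 higher in the female adult than in the female pupa, 87 lower in the male adult than in the male pupa, 2 higher and 1 lower in the female pupa than in the male pupa, and 108 higher and 8 lower in the female adult than in the male adult. The shares of all genes past a difference of 1 in these comparisons were not counted, so that these counts have no background. Members higher in the female pupa than in L1 numbered 7 with equal upper quartiles and 18 with equal sums, against 4.66% and 7.65% of all genes. With the egg in place of L1 they numbered 3 in the female pupa and 2 in the male pupa, for which no share of all genes was counted. For the adult sexes, sets chosen with equal upper quartiles had 6 of 190 genes lower in the female adult, and those chosen with equal sums 39 of 67 higher and 1 lower. Over all genes, 12.4% were lower with equal upper quartiles, and with equal sums 14.2% were higher and 9.26% lower. The 80 members with intervals apart had 39 higher and 1 lower in the female adult, and 1 higher in the male adult than in the male pupa, fewer genes being counted. The shares of all genes were 8.87%, 10.3% and 8.91% in the same order. The female adult was the highest library in 23 members with equal upper quartiles, and L2 in 92 there and in 5 with equal sums. Other causes were not tested. No paired analysis was possible because each stage had 1 library. At these depths 3 reads at 1 kb correspond to an RPKM of between 0.0853 and 0.128.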

Other observations

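The members had a median recovered coding length of 751.5 bp (180 to 5469 bp), against 1041 bp in the 4382 L2-expressed genes and 1002 bp over all genes. No member had a near-identical copy (0 of 146), taken as another gene with equal length and almost equal reads. The share of all genes with such a copy was not counted, so that nothing is read from this.

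The members were a small part of the RNA in each library. Their summed RPKM was 10550 in the egg, 8029 in L1, 13740 in L2, 7212 in L3, 3976 in L4, 2303 in L5, 10360 (female) and 9926 (male) in the pupae, and 13110 (female) and 4771 (male) in the adults. As a share of the summed RPKM of all genes this was 1.12% in the egg, 0.562% in L2, 0.118% in L5, and 1.54% (female) and 0.429% (male) in the adults.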
